A study of Mus musculus with 13 samples.

Results

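Transcripts of 10 genes of the interleukin-6 (IL-6) family were measured in mouse lung: the cytokines Il6, Osm, Lif and Il11, the receptor chains Il6st, Il6ra, Osmr, Lifr and Il11ra1, and the inhibitor Socs3. They were taken by gene symbol from the 20270 genes of the deposited tables, and all 10 were among the 15315 genes with enough counts to be tested. Bulk RNA came from the lower right lung lobe, and the 13 libraries were read as 13 mice. The 4 control mice (replicates 3, 21, 24 and 26) were wildtype and received sterile saline, the vehicle. The 5 wildtype (WT) bleomycin mice (replicates 4, 2, 5, 4-B2 and 7) and the 4 CB1R KO bleomycin mice (replicates 8, 9, 10 and 11) had a single oropharyngeal dose of 1 U per kg, and were analysed 14 days later. Replicates 4 and 4-B2 share a number, and no label says whether they are separate mice. Bleomycin is a DNA-damaging drug that causes lung injury followed by scarring. CB1R KO mice carry a Cnr1-/- deletion and lack the cannabinoid receptor CB1R. All mice had the C57BL/6J background, and the purchased mice were males 13 weeks old; the age and sex of the CB1R KO mice are not given separately. No bleomycin-free CB1R KO lungs were analysed here, so values in the CB1R KO group cannot be set against an uninjured lung of the same genotype.

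IL-6 family cytokines act through receptors that share the signalling chain gp130, the product of Il6st. A second chain sets which cytokine is bound: Il6ra for IL-6, Il11ra1 for IL-11, Lifr for leukemia inhibitory factor, and Osmr for oncostatin M. Binding activates JAK kinases and the transcription factor STAT3, which induces Socs3, and the SOCS3 protein binds gp130 and shuts the signal off. In the lung the family is known for acute phase responses of the epithelium and for effects on fibroblasts.

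The promoters of these genes were read from RefSeq (GRCm38.p6), in windows reaching from 250 bases before to 50 bases after each annotated start. Windows were found for 9 of the 10 genes, 12 windows in all. On both strands they were searched for TTCNNNGAA, the pattern bound by STAT factors, and for TGANTCA, the pattern bound by AP-1 factors such as JunB, because STAT3 acts downstream of these receptors and AP-1 factors act on many cytokine genes. The STAT pattern occurred in Socs3, and the AP-1 pattern in Il6, Il11, Lif and Osmr. Of 32851 windows over all genes, 8.3% held the STAT pattern and 7.81% the AP-1 pattern, so a match is a description of these letters and not a binding site. No gene held both patterns, and the match in Osmr lay after the start and is not printed. The stretches around the other matches follow, with the matching bases in capitals, shown for their place relative to the start.
Socs3 (minus strand, chr11:117969494-117969538): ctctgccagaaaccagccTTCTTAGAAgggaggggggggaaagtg
Il6 (plus strand, chr5:30012864-30012889): cTGAGTCActtttaaagaaaaaaaag
Il11 (minus strand, chr7:4778215-4778257): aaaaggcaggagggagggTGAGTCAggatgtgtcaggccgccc
Lif (plus strand, chr11:4257322-4257364): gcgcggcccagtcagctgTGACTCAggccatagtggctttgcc
The match began 154 bases before the start in Socs3, 249 in Il6, 98 in Il11 and 228 in Lif. The Socs3 stretch lay in an intron of a non-coding Socs3 transcript and the Il11 stretch in introns of longer Il11 transcripts in the GENCODE annotation of that build. The Il6 and Lif stretches overlapped no annotated transcript of their gene.

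Library totals ran from 14615904 to 16662580 estimated counts in 12 libraries and reached 53463884 in replicate 11 of the CB1R KO group. The sample labels of control replicate 26 and WT bleomycin replicates 4-B2 and 7 hold capital letters. All other labels, those of every CB1R KO library included, are in lower case, and no label says what this style marks. Cnr1 was counted in the libraries labelled CB1R KO as well, at 41 to 188.1 estimated counts against 50 to 110 in WT bleomycin lungs, so it does not check the genotype and directions rest on the labels. Levels are given in TPM (transcripts scaled to a fixed total over all transcripts quantified), which are corrected for transcript length and can be compared between genes. Over the protein-coding genes of the table, TPM summed to between 821763 (CB1R KO replicate 11) and 854358 (control replicate 24). Differences are log2 fold changes of edgeR with their standard error (SE), and a gene was called at a Benjamini-Hochberg adjusted p under 0.05 over all genes tested. In bulk tissue, fewer cells of a type and less RNA per cell cannot be told apart.

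In WT lungs 14 days after bleomycin, all 10 genes differed from control: 7 rose (the 4 cytokines, Il6st, Osmr and Socs3) and 3 fell (Il6ra, Lifr and Il11ra1). Over all genes tested, 25.0% were called higher and 23.9% lower in this comparison. The TPM ranges of WT bleomycin and control libraries did not overlap for 9 of the 10, the exception being Osm, against 37.3% of all genes. Log2 fold changes ran from -0.96 for Lifr to 3.25 for Lif, with a median of 1.18 where the median of all genes was -0.01. In CB1R KO bleomycin lungs against the same control libraries, 4 of the 10 were called higher (Il6, Lif, Osmr and Socs3) and 3 lower (Il6ra, Lifr and Il11ra1), against 19.0% and 16.3% of all genes. The ranges were apart for 7 of the 10, against 32.6% of all genes, and the median log2 fold change was 0.59. When the CB1R KO libraries were set against WT bleomycin, 1 of the 10, Socs3, was called, and it was lower. The background in this comparison was 0.359% of all genes higher and 0.62% lower. The ranges were apart for 2 of the 10, Socs3 and Il6, against 5.27% of all genes. The median over the 10 was -0.56, with 0.00 for all genes, and 7 of the 10 had an unadjusted p under 0.05, where 17.0% of all genes had. These 3 comparisons share libraries, so their values are set side by side and are not independent of each other.

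**Figure D1:**
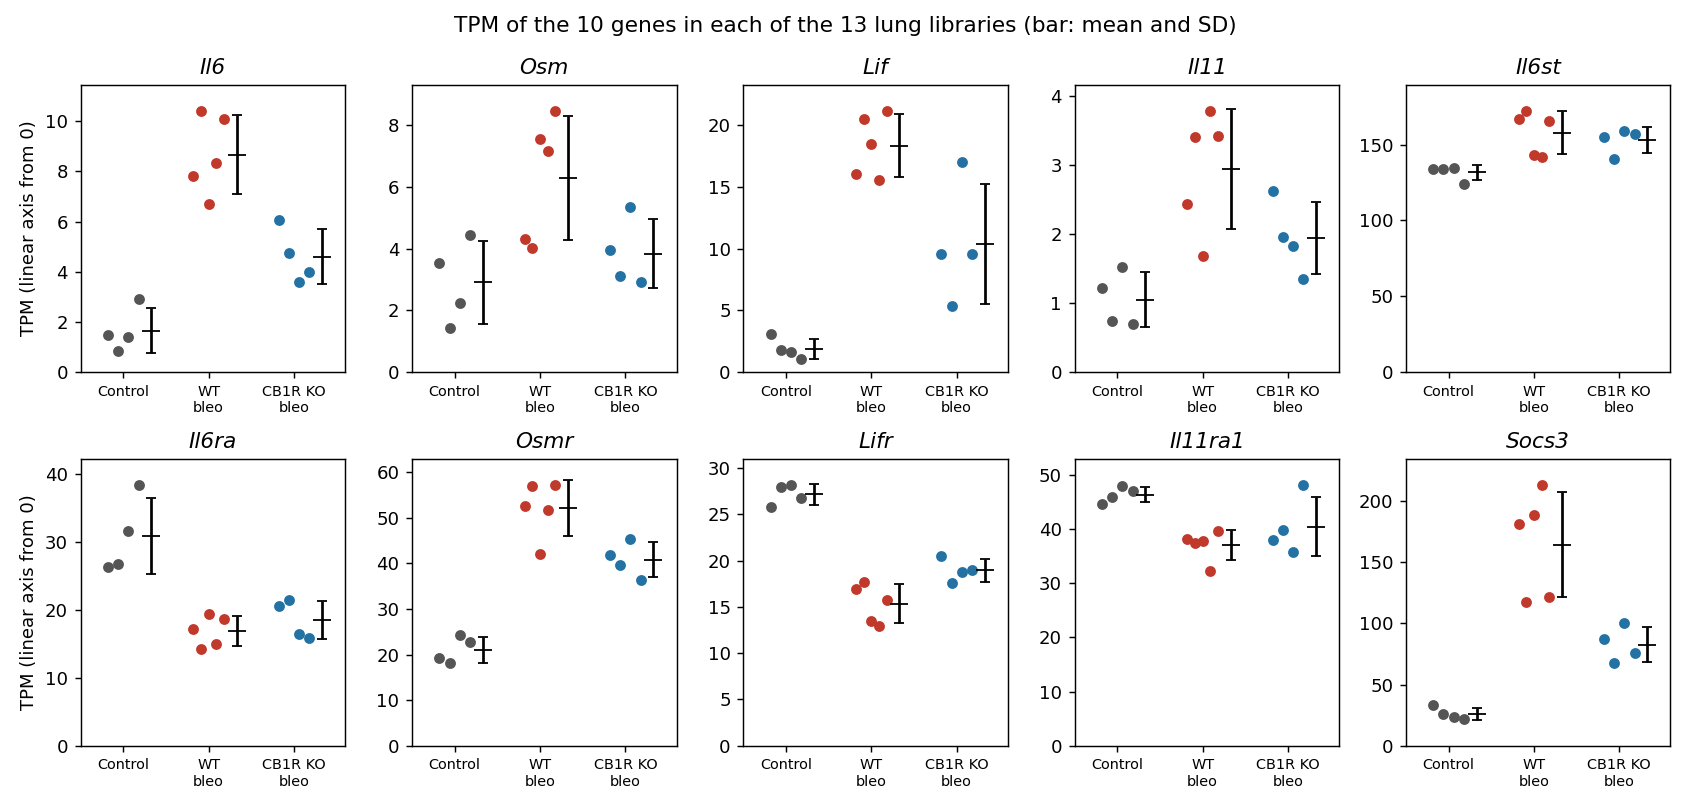
TPM of each of the 10 genes in the 13 libraries, on linear axes from 0, with control in grey, WT bleomycin in red and CB1R KO bleomycin in blue. Each point is 1 library, and the bar to the right of the points is the mean with its SD. Socs3 lies at 21.8 to 33.2 TPM in control, 117 to 213 in WT bleomycin and 67.4 to 101 in CB1R KO bleomycin lungs, with no overlap among the groups.

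Among the cytokines, Lif, the ligand of the Lifr and gp130 receptor, rose furthest with bleomycin. Control libraries 3, 21, 24 and 26 had 3.06, 1.77, 1.60 and 1.09 TPM of Lif, WT bleomycin libraries 4, 2, 5, 4-B2 and 7 had 16.0, 20.5, 18.4, 15.6 and 21.1, and CB1R KO libraries 8, 9, 10 and 11 had 9.59, 5.31, 17.0 and 9.59. Every bleomycin library of either genotype was above every control library. Among the CB1R KO libraries, replicate 10 lay inside the WT bleomycin range and the other 3 below it. The log2 fold change was 3.25 (SE 0.31, adjusted p = 1.53e-06) in WT bleomycin against control and 2.40 (SE 0.31, adjusted p = 6e-05) in CB1R KO bleomycin against control. Between CB1R KO and WT bleomycin it was -0.86 (SE 0.26, adjusted p = 0.126), which did not pass the threshold. Without CB1R KO replicate 10, which sets the upper end of its group, it was -1.18 (adjusted p = 0.0149). The difference was called in 2 of 25 alternatives, this one included.

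Il6 encodes IL-6, the acute phase cytokine that names the family. Its TPM was 1.47, 0.838, 1.38 and 2.93 in the control libraries, 7.83, 10.4, 6.69, 8.36 and 10.1 in the WT bleomycin libraries and 6.08, 4.75, 3.58 and 3.99 in the CB1R KO libraries, in the order of replicates given for Lif. By TPM the 3 groups formed 3 separate ranges, with CB1R KO bleomycin between control and WT bleomycin. By CPM, counts scaled to library size, the lowest CB1R KO library (2.895) lay just below the highest control library (2.899). Il6 rose with bleomycin in WT lungs (log2 fold change 2.36, SE 0.34, adjusted p = 6.5e-05) and in CB1R KO lungs against control (1.38, SE 0.36, adjusted p = 0.00832). The difference between CB1R KO and WT bleomycin was -0.98 (SE 0.31, unadjusted p = 0.00625, adjusted p = 0.133) and was not called, although the CB1R KO libraries all lay below the lowest WT bleomycin library. It was called in 4 of 25 alternatives, DESeq2 on all 13 libraries among them (adjusted p = 0.0383). Over the 25 the value ran from -1.19 to -0.72. These values rest on few reads, 10 to 45 estimated counts per control library and 48 to 167 per CB1R KO library.

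Osm encodes oncostatin M, made mainly by myeloid cells. The control libraries had 3.52, 1.42, 2.24 and 4.46 TPM, the WT bleomycin libraries 4.31, 4.01, 7.56, 7.15 and 8.46, and the CB1R KO libraries 3.96, 3.11, 5.37 and 2.93. WT bleomycin replicates 5, 4-B2 and 7 stood above every control library, whereas replicates 4 and 2 lay below the highest control library, replicate 26. The CB1R KO values lay within the span of the control values except replicate 10. Osm rose in WT bleomycin against control (log2 fold change 1.08, SE 0.33, adjusted p = 0.0136), while in CB1R KO bleomycin against control the value was 0.31 (SE 0.35, adjusted p = 0.522). CB1R KO against WT bleomycin stood at -0.78 (SE 0.32, adjusted p = 0.231), so the genotypes were not separated for this gene.

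Il11 encodes IL-11, a cytokine of stromal and epithelial cells, and was the least abundant of the 10 in each group by mean TPM. It was at 1.22, 0.743, 1.53 and 0.697 TPM in the control libraries, 2.44, 3.41, 1.67, 3.78 and 3.41 in the WT bleomycin libraries and 2.62, 1.95, 1.83 and 1.35 in the CB1R KO libraries. All WT bleomycin libraries exceeded all control libraries, WT bleomycin replicate 5 by the smallest margin. The rise in WT lungs passed the test (log2 fold change 1.59, SE 0.32, adjusted p = 0.000955). The difference of CB1R KO bleomycin from control was 0.87 (SE 0.34, adjusted p = 0.0598), and that from WT bleomycin was -0.72 (SE 0.30, adjusted p = 0.231). The counts behind it were the smallest of the 10, from 9.1 to 21 per control library, and 5.06% of the 31-base stretches of its transcripts also occur in other genes.

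The receptor chains moved in both directions. Il6st, which encodes the shared chain gp130, was the most abundant member in control lungs and changed least. Control libraries had 134.1, 134.2, 134.6 and 124.2 TPM, WT bleomycin libraries 167, 172, 143, 142 and 165, and CB1R KO libraries 155, 140.3, 159 and 157. All bleomycin libraries were above all control libraries in TPM, and the bleomycin groups overlapped each other. Il6st was called higher in WT bleomycin against control (log2 fold change 0.22, SE 0.07, adjusted p = 0.0119). The values were 0.13 (SE 0.07, adjusted p = 0.157) in CB1R KO bleomycin against control and -0.09 (SE 0.07, adjusted p = 0.504) against WT bleomycin. With the libraries with lower-case labels alone, the WT difference was 0.19 and not called (adjusted p = 0.115).

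Osmr, the chain that pairs with gp130 for oncostatin M and with Il31ra for interleukin-31, rose most among the 5 receptor chains. Its TPM was 19.2, 18.1, 24.2 and 22.7 in the control libraries, 52.6, 57.0, 42.0, 51.8 and 57.2 in the WT bleomycin libraries and 41.9, 39.5, 45.4 and 36.4 in the CB1R KO libraries. Each bleomycin library was above each control library, and 3 of 4 CB1R KO libraries were below every WT bleomycin library, replicate 10 again being the one inside their range. The log2 fold change was 1.27 (SE 0.11, adjusted p = 6.34e-07) in WT bleomycin and 0.87 (SE 0.11, adjusted p = 5.32e-05) in CB1R KO bleomycin, both against control. Between the bleomycin groups it was -0.40 (SE 0.11, unadjusted p = 0.00201, adjusted p = 0.0806), short of the threshold. Osmr was called in 3 of 25 alternatives, with adjusted p up to 0.385 over the 25. Among the 3 were edgeR without CB1R KO replicate 10 (-0.45, adjusted p = 0.0432) and DESeq2 on all 13 libraries (adjusted p = 0.0174). Over all genes these fits called 653 and 640, where the main fit called 150.

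Lifr, the receptor chain for leukemia inhibitory factor, went the other way. Control libraries had 25.8, 28.0, 28.2 and 26.7 TPM, WT bleomycin libraries 17.0, 17.7, 13.4, 12.9 and 15.8, and CB1R KO libraries 20.5, 17.5, 18.8 and 18.9. Every bleomycin library lay below every control library, and the bleomycin groups overlapped only through CB1R KO replicate 9 and WT bleomycin replicate 2. Lifr fell in WT bleomycin (log2 fold change -0.96, SE 0.08, adjusted p = 5e-07) and in CB1R KO bleomycin against control (-0.66, SE 0.08, adjusted p = 4.89e-05). The value in CB1R KO against WT bleomycin was 0.30 (SE 0.08, unadjusted p = 0.0022, adjusted p = 0.0831), which was not called by edgeR. It was called in 2 of 25 alternatives, DESeq2 on all 13 libraries (adjusted p = 0.0214) and on 2 groups (0.0483). In the annotation Osmr and Lifr are neighbours with 0 protein-coding genes between them, as are Osm and Lif.

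Osmr and Lifr both pair with gp130, and their TPM ratio was taken within each library, where the scaling between libraries cancels. The ratio of Osmr to Lifr was 0.746, 0.646, 0.86 and 0.849 in the control libraries, 3.1, 3.23, 3.13, 4.02 and 3.62 in the WT bleomycin libraries and 2.04, 2.25, 2.41 and 1.92 in the CB1R KO libraries. Lifr was therefore the more abundant of the pair in each control library and Osmr in each bleomycin library, and the ranges of the 3 groups were apart. On the log2 scale the mean ratio was -0.38 ± 0.19 (SD, n = 4), 1.77 ± 0.16 (SD, n = 5) and 1.10 ± 0.15 (SD, n = 4), a difference of -0.66 between CB1R KO and WT bleomycin. With CPM in place of TPM, or with any library left out, this difference stayed between -0.72 and -0.60. The ratio of Osmr to Il6st was 0.135 to 0.183 in control, 0.293 to 0.364 in WT bleomycin and 0.232 to 0.285 in CB1R KO libraries, also without overlap. These ratios are descriptions without a test.

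**Figure D2:**
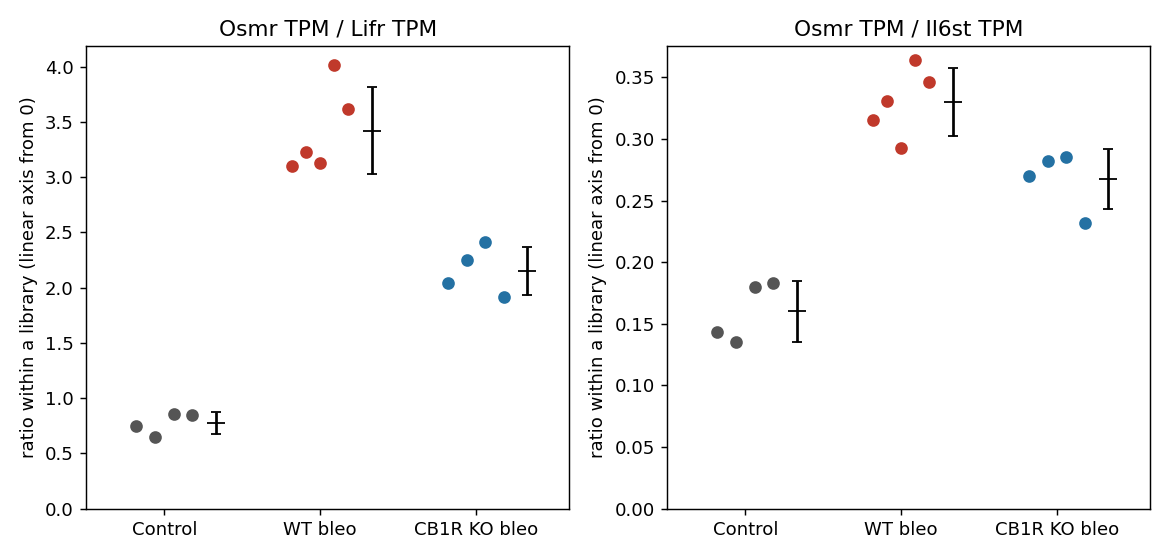
Ratio of Osmr to Lifr TPM (left) and of Osmr to Il6st TPM (right) within each library, on linear axes from 0. Each point is 1 library, and the bar is the mean with its SD. The Osmr to Lifr ratio is under 1 in every control library and between 1.92 and 4.02 in the bleomycin libraries, with the CB1R KO libraries below the WT libraries.

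Il6ra encodes the IL-6 binding chain, and Il11ra1 that of IL-11. Il6ra stood at 26.4, 26.9, 31.7 and 38.5 TPM in control, 17.1, 14.2, 19.4, 15.0 and 18.8 in WT bleomycin and 20.6, 21.4, 16.5 and 15.9 in CB1R KO libraries. Its bleomycin libraries all lay below its control libraries, and the genotypes overlapped. The fall with bleomycin was of like size in WT (log2 fold change -0.91, SE 0.13, adjusted p = 4.55e-05) and CB1R KO lungs (-0.81, SE 0.13, adjusted p = 0.000387), and the genotypes differed by 0.09 (SE 0.13, adjusted p = 0.754). Il11ra1 was at 44.5 to 47.8 TPM in control, 32.2 to 39.6 in WT bleomycin and 35.7 to 48.1 in CB1R KO libraries. It was called lower in WT bleomycin (log2 fold change -0.35, SE 0.08, adjusted p = 0.00318) and in CB1R KO bleomycin against control (-0.26, SE 0.09, adjusted p = 0.0348). The value in CB1R KO against WT bleomycin was 0.09 (SE 0.08, adjusted p = 0.608). Il11ra1 is uncertain as a single gene, because 51.5% of the 31-base stretches of its transcripts are shared with the near-identical Il11ra2 and Gm13305, and its call in CB1R KO bleomycin against control was lost in 13 of 25 alternatives.

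Socs3, the feedback inhibitor of gp130 signalling, was the member called between the genotypes. Control libraries 3, 21, 24 and 26 had 33.2, 26.2, 23.25 and 21.8 TPM, WT bleomycin libraries 4, 2, 5, 4-B2 and 7 had 181, 117, 189, 213 and 122, and CB1R KO libraries 8, 9, 10 and 11 had 86.9, 67.4, 101 and 75.4. The 3 groups were apart, with CB1R KO bleomycin between control and WT bleomycin, and the highest CB1R KO library was replicate 10. The group means were 26.1 ± 5.06 (SD, n = 4), 164 ± 42.7 (SD, n = 5) and 82.6 ± 14.4 TPM (SD, n = 4). Socs3 rose with bleomycin in WT lungs (log2 fold change 2.63, SE 0.20, adjusted p = 2.48e-07) and in CB1R KO lungs against control (1.59, SE 0.20, adjusted p = 4.36e-05), and it was lower in CB1R KO than in WT bleomycin lungs (-1.04, SE 0.18, adjusted p = 0.0231). The size of the last difference ran only from -1.15 to -0.91 over 25 alternatives, all with the same sign, but the call was made in 18 of them. It was lost without WT bleomycin replicate 5 (adjusted p = 0.0572) or 4-B2 (0.0566), without CB1R KO replicate 8 (0.0786), 9 (0.0946) or 11 (0.0777), with the style of the sample labels as a term (0.0554) and with lower-case labels alone (0.0966). Over all genes, these fits called 24, 30, 9, 1, 3, 41 and 6 in the same order, where the main fit called 150. Because capital labels occurred in WT bleomycin and in no CB1R KO library, label style was partly confounded with genotype.

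**Figure D3:**
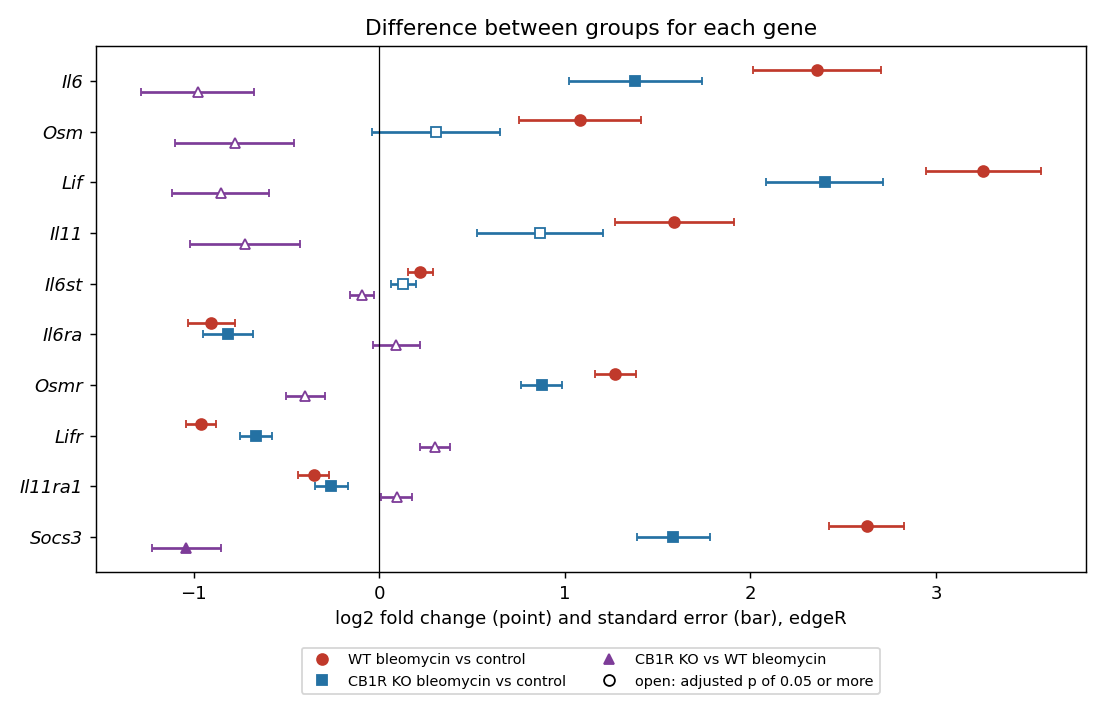
Log2 fold change (points) and SE (bars) of the 10 genes in WT bleomycin against control (red circles), CB1R KO bleomycin against control (blue squares) and CB1R KO against WT bleomycin (purple triangles); open points have an adjusted p of 0.05 or more. The red points are filled for all 10 genes, and among the purple points only that of Socs3, at -1.04, is filled.

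By level, the order of the genes changed between groups. In control lungs Il6st had the highest mean (131.8 TPM) and did not overlap Il11ra1 (46.3), while Il6ra, Lifr, Socs3 and Osmr, from 30.9 down to 21.1 TPM, each overlapped the next lower gene except that Osmr stood clear of the cytokines. The 4 cytokines were lowest and overlapped their neighbours in the order. In WT bleomycin lungs Socs3 (164 TPM) and Il6st (158) were highest and overlapped, Osmr (52.1) followed without overlap with either neighbour, and Lif (18.3) overlapped Il6ra (16.9). In CB1R KO bleomycin lungs Il6st (153) was again highest, clear of Socs3 (82.6), and Osmr (40.8) and Il11ra1 (40.4) overlapped.

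The genes whose pattern over the 13 libraries was most like that of a cytokine, a receptor and the inhibitor were sought among all genes tested, as the smallest root mean square difference of log2 CPM, counts scaled to library size, after centring. Nearest to Osm were Junb (0.299), an AP-1 transcription factor, Hhipl1 (0.349) and Rnf165 (0.351), where the median over all genes was 0.722. Nearest to Osmr were Enpp1 (0.146), Rin1 (0.147) and Itga5 (0.154), the fibronectin receptor subunit, against a median of 0.603. Nearest to Socs3 were Basp1 (0.315), Serpinb9b (0.318) and Fcgr2b (0.318), an Fc receptor of myeloid and B cells, against 1.13.

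The rest of the pathway was described by 3 gene lists. STAT3 target and acute phase genes, 28 tested of the 31 in the tables, had 21 called higher and 0 lower in WT bleomycin against control, with a median log2 fold change of 0.98. Over all genes, 25.0% were called higher and 23.9% lower in this comparison. The largest rises were those of Timp1, an inhibitor of metalloproteinases (4.58, SE 0.35), the acute phase protein Saa3 (4.36, SE 0.37) and the protease inhibitor Serpina3n (2.52, SE 0.18). Between CB1R KO and WT bleomycin lungs, 26 of the 28 values were negative, with 49.9% negative over all genes, and the median was -0.33. In this comparison 0 were called higher and 4 lower: Timp1 (-1.46, SE 0.29, adjusted p = 0.0314), Serpina3n (-1.003, SE 0.17, adjusted p = 0.0215), the transcription factor Myc (-0.95, SE 0.14, adjusted p = 0.0177) and haptoglobin, Hp (-0.34, SE 0.07, adjusted p = 0.0314), the last named because it completes the count. Of all genes, 0.359% were called higher and 0.62% lower between these groups. Saa3 was at -0.996 (SE 0.28, adjusted p = 0.102). Against control, CB1R KO bleomycin lungs had 16 of the 28 called higher, led by Saa3 (3.37), Timp1 (3.12) and the iron-binding lipocalin Lcn2 (2.20), and 1, the kinase Pim3 (-0.58), lower, with a median of 0.68. The shares over all genes were 19.0% higher and 16.3% lower. The 4 calls between genotypes changed with single libraries, as did the calls over all genes, which were 150 in the main fit and follow in brackets. Without CB1R KO replicate 9 (1) or 11 (3), 0 were made. Without CB1R KO replicate 8 (9) or WT bleomycin replicate 5 (24), 1 was made. Without WT bleomycin replicate 2 (62), 4-B2 (30) or 7 (35), 2 were made, and without CB1R KO replicate 10 (653), 8. DESeq2 on all 13 libraries made 7 calls (640 over all genes). With the label style as a term edgeR made 1 (41), and with lower-case labels alone 0 (6).

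The levels of 3 of these targets follow. Timp1 had a mean of 10.9 ± 6.49 TPM (SD, n = 4) in control lungs, which became 270 ± 37.1 (SD, n = 5) after bleomycin in WT and 100.3 ± 48.2 (SD, n = 4) after bleomycin in CB1R KO mice. Serpina3n was at 80.0 ± 4.18, 468 ± 111 and 241 ± 60.6 TPM, and Myc at 8.17 ± 1.21, 26.2 ± 4.31 and 14.5 ± 1.65, in the same groups and with the same n. For these 3 genes every CB1R KO library lay below every WT bleomycin library and above every control library.

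The JAK-STAT3 pathway and its inhibitors, 22 genes, had 8 called higher and 6 lower in WT bleomycin against control, where 25.0% and 23.9% of all genes were called, with a median of 0.10. These shares are near those of all genes, and nothing particular to the pathway is read from them. Stat3 itself rose (0.51, SE 0.06), as did Socs1, a relative of Socs3 (0.85, SE 0.19), Adam17, the protease that sheds Il6ra (0.62, SE 0.11), and the phosphatase Ptpn2 (0.60, SE 0.08). Gab1, an adaptor (-0.62, SE 0.07), Stat5b (-0.57, SE 0.06) and Pias1, an inhibitor of STAT factors (-0.46, SE 0.06), fell. Between CB1R KO and WT bleomycin, 0 of the 22 were called by edgeR, 5 had an unadjusted p under 0.05, and values ran from -0.25 to 0.19. No alternative, DESeq2 included, called any of them. Against control, 7 were called higher and 5 lower in CB1R KO bleomycin lungs, led by Adam17 (0.72), Socs1 (0.62) and Adam10 (0.52), also a sheddase, and by Gab1 (-0.48), Stat5b (-0.38) and Pias3 (-0.29). Beside these counts, 19.0% of all genes were called higher and 16.3% lower.

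Of 12 other ligands and receptors of the family, 10 were tested, and 2 fell in WT bleomycin against control: Cntfr, the receptor chain for ciliary neurotrophic factor (-1.19, SE 0.24), and Il27, a subunit of interleukin-27 (-0.93, SE 0.32). In this comparison 23.9% of all genes were called lower, so nothing particular to these genes is read from the count. In CB1R KO bleomycin against control, where 16.3% of all genes were called lower, Cntfr (-1.25) was called again. Between the genotypes edgeR called 0 of the 10, with 2 at an unadjusted p under 0.05, and the median was -0.08. All 3 lists were written with earlier results of these data known.

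**Figure D4:**
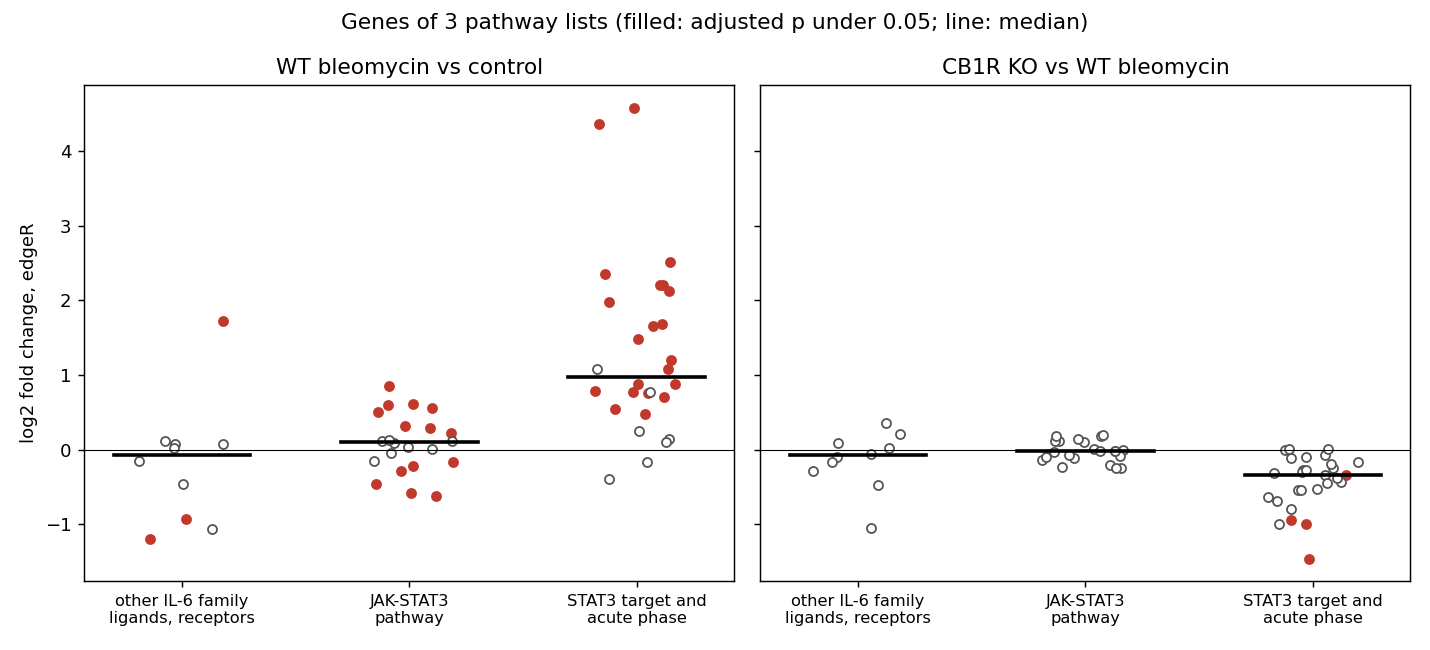
Log2 fold changes of the tested genes of 3 pathway lists in WT bleomycin against control (left) and CB1R KO against WT bleomycin (right); each point is 1 gene, filled where the adjusted p is under 0.05, and the line is the median of the list. The STAT3 target and acute phase genes have a median of 0.98 on the left and -0.33 on the right. The medians of the other 2 lists lie near 0, with single genes on either side of it.

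Markers of some cell types differed between the groups as well. For the counts below, 25.0% of all genes were called higher and 23.9% lower in WT bleomycin against control. The shares were 19.0% and 16.3% in CB1R KO bleomycin against control, and 0.359% and 0.62% in CB1R KO against WT bleomycin. The summed TPM of 12 monocyte-derived and interstitial macrophage markers was 274 to 421 in control, 1483 to 1661 in WT bleomycin and 1038 to 1643 in CB1R KO bleomycin libraries, 11 of the 12 being called higher with bleomycin in each genotype and 0 between the genotypes. The 12 fibroblast markers summed to 1195 to 1304, 2477 to 3210 and 2137 to 2680 TPM in the same order, with 5 called higher and 3 lower in WT bleomycin against control and 0 between the genotypes. The 8 markers of type II alveolar cells, the surfactant-making epithelium, summed to 32150 to 37570, 19310 to 23040 and 24080 to 37710 TPM. Of these, 6 were called lower in WT bleomycin against control and 3 higher in CB1R KO than in WT bleomycin lungs. The 6 smooth muscle markers summed to 509 to 622 TPM in control, 665 to 997 in WT bleomycin and 556 to 656 in CB1R KO bleomycin libraries, with all 6 values negative and 2 called lower in CB1R KO against WT bleomycin. The 11 T and NK cell markers summed to 151 to 219, 74.7 to 114 and 125 to 134 TPM, with all 11 values positive and 2 called higher in CB1R KO against WT bleomycin. The sums of type II, smooth muscle, and T and NK cell markers did not overlap between the bleomycin groups, and those of macrophage and fibroblast markers did. In CB1R KO replicate 10, which was highest of its group for Lif, Osm, Osmr and Socs3 and lowest for Il6 by TPM, the macrophage sum (1643) and the fibroblast sum (2680) were also highest and the type II sum (24080) lowest. By CPM replicate 10 was not lowest for Il6 (3.231, against 2.895 in CB1R KO replicate 9). The 11 neutrophil markers summed to 318 to 1724 TPM in control, 265 to 456 in WT bleomycin and 259 to 587 in CB1R KO bleomycin libraries, and in these lists no marker was at 0 in all libraries. Cardiac muscle markers were at 722 to 1885, 141 to 540 and 512 to 941 TPM, and immediate early genes, which respond to tissue handling, at 1185 to 1928, 1146 to 1699 and 1105 to 1444. In WT bleomycin against control, 1 of 9 tested neutrophil markers was called higher and 5 lower. All 8 cardiac muscle markers were called lower there, and of 12 immediate early genes 3 were called higher and 3 lower. Between the genotypes 0 of these 3 lists were called. The neutrophil and immediate early sums overlapped among all groups. The part of these shifts in the values of the IL-6 family was not tested.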

How the data were processed

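Lung RNA in 13 libraries, read as 13 mice, was sequenced by the study as paired-end reads. The authors quantified the reads with kallisto on Ensembl release 105 (GRCm39). They deposited its estimated counts, together with TPM, as sums over the protein-coding transcripts of each symbol. Neither was normalized between libraries. The 13 tables of single samples repeat those values. The TPM table has 1 column that belongs to no sample and was not used.

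The main test was edgeR's quasi-likelihood fit (edgeR 4.0.16, R 4.3.3) of rounded counts after filterByExpr and TMM normalization, in 3 groups with no covariate, over 15315 genes with Benjamini-Hochberg adjustment. Log2 CPM used a prior count of 2. On simulated data, 178, 178 and 170 of 200 changed genes were recovered in the 3 comparisons, with 8, 10 and 10 false calls. Only those 200 genes differed there, each by a log2 fold change of 1 or more in size. Recovery of smaller differences, or where many genes differ, was not tested. Groups came from the labels, which do not say more about how mice were raised or processed together. The genes named were the 10 members, up to 3 per direction, comparison and pathway list by size among those called, the 3 nearest in pattern to Osm, Osmr and Socs3, and Cnr1; a gene selected in this way is not reported here. Hp was named after its values were seen, as were the marker sums quoted. Stat3 was named outside the rule by size. The members and all lists were chosen with earlier results of these data known. Alternatives were other filters and normalizations, DESeq2 1.42.0, limma 3.58.1 on log2 TPM with a pseudocount of 1 or 0.1, edgeR on 2 groups, label style, thinning of CB1R KO replicate 11, and each library left out. Tables and plots used Python 3.11.15, pandas 2.3.3, numpy 2.4.6 and matplotlib 3.10.9. RefSeq sequences and shared 31-base stretches came from GRCm38, another build than the authors'. No protein sequences were used here.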

Additional observations from a re-analysis of the deposited data

Results flagged for a closer look

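In control lungs, the Il6st level of replicate 26 stood apart from the other 3 control libraries: it was 124.2 TPM against 134.1 to 134.6, a gap of 0.956 of the whole range of the group. The gap exceeds the 95% limit of Dixon's test for 4 samples. Such gaps occur by chance in about 1 of 20 groups, and this was 1 of 30 groups examined (10 genes in 3 groups).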

How the results depend on the processing

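Over the alternatives, 30 member values (10 genes in 3 comparisons) gave 747 recomputed log2 fold changes: 707 kept direction and side of the threshold, 21 lost the call, 18 gained it and 1 changed sign, Il11ra1 in CB1R KO against WT bleomycin, where leaving out single libraries gave -0.0038 (without CB1R KO replicate 11) to 0.1452. The number of members called stayed between 9 and 10 in WT bleomycin against control and between 6 and 8 in CB1R KO bleomycin against control. Between CB1R KO and WT bleomycin, 1 member was called in the main fit, where 150 of 15315 genes were. The number was 4 with DESeq2 on all 13 libraries (640 of all genes), 5 with DESeq2 on 2 groups (644) and 2 with edgeR on 2 groups (88). It was 0 with the label style as a term (41 of all genes) or with lower-case labels only (6). Leaving out single libraries gave 0 to 3, with 2 without control replicate 26 (136 of all genes) and 3 without CB1R KO replicate 10 (653). It was 0 without WT bleomycin replicate 5 (24 of all genes) or 4-B2 (30). It was also 0 without CB1R KO replicate 8 (9 of all genes), 9 (1) or 11 (3). The calls over all genes varied as well, so these counts are not read as particular to the members. The ratio of Osmr to Lifr or Il6st moved by less than the spread between replicates in each comparison, with CPM in place of TPM or any library left out. All members passed the count filter, so the planned test for members below it was not needed. No paired analysis was possible because the groups share fewer than 2 replicate numbers. Counts per control library were lowest for Il11 (9.1 to 21) and Il6 (10 to 45), so their values carry the most counting error of the 10 members. The cause of the changes between alternatives was not tested.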
